A study of Mus musculus with 8 samples.

Results

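The genes described here are 8 genes of tissue-resident macrophages, Mrc1, Cd163, Lyve1, Stab1, Cbr2, Folr2, Clec10a and Mgl2, taken by their gene symbols from the 30406 genes shared by the single-cell matrices of mouse sciatic nerve myeloid cells. All 8 were present in the matrices, and all 8 passed the filter on low counts that left 11482 genes for testing. Male and female C57BL/6JolaHsd mice, bought at 7 weeks of age, had a partial sciatic nerve ligation (PSNL, in which a suture is tied round part of the nerve), a nerve crush with forceps or a sham operation that only exposed the nerve. Leukocytes of the nerve that carry CD45 and CD11b were sorted and sequenced on the 10x platform, with hashtag antibodies marking the samples within each library. The groups were PSNL at 15 weeks (4 hashtag samples), crush at 15 weeks (3), PSNL at 1 week (2), crush at 1 week (2) and sham at 1 week (2). All groups share the saline perfusion of the mice before the nerve was taken and the enzymatic digestion of the tissue. A sham group at 15 weeks was not analysed here. Whether a hashtag sample is 1 mouse or a pool is not stated in the sources used here, so the p-values measure the spread between hashtag samples.

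Most of these genes encode receptors that sit on macrophages and take up material from their surroundings. Mrc1 encodes the mannose receptor (CD206), which binds glycoproteins with terminal mannose, Cd163 the receptor for haemoglobin bound to haptoglobin, Stab1 the scavenger receptor stabilin-1, Lyve1 a hyaluronan receptor that is also known from lymphatic endothelium, and Folr2 the folate receptor beta. Clec10a and Mgl2 encode the paired galactose-type C-type lectins of the mouse, which also mark subsets of dendritic cells. Cbr2 encodes carbonyl reductase 2, an enzyme and not a receptor, and is a marker gene of resident macrophages in several mouse tissues.

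In the GENCODE M21 annotation of GRCm38 the 8 genes lie on 5 chromosomes, at chr2:14229392-14332057 (Mrc1, ENSMUSG00000026712, plus strand), chr6:124304656-124330527 (Cd163, ENSMUSG00000008845, plus), chr7:110850607-110863239 (Lyve1, ENSMUSG00000030787, minus), chr14:31139013-31168641 (Stab1, ENSMUSG00000042286, minus), chr11:120729489-120732114 (Cbr2, ENSMUSG00000025150, minus) and chr7:101839988-101857194 (Folr2, ENSMUSG00000032725, minus). Clec10a (ENSMUSG00000000318, chr11:70156197-70170834, plus) and Mgl2 (ENSMUSG00000040950, chr11:70130329-70137550, plus) lie close together on the same strand. Of the 90-base words of the longest Clec10a transcript, 4.95% also occur in Mgl2 transcripts, and 7.18% of the words of the longest Mgl2 transcript occur in Clec10a. Reads from those stretches cannot be placed with certainty. How far this touches the counts of these paralogues was not measured. Promoter sequences (RefSeq, GRCm38.p6, the 250 bases before the annotated start) were matched for 6 of the 8 genes. The promoters of Mrc1, of Cd163 and of Mgl2 are shown as examples of a receptor with several matches, a receptor with none and a lectin with 1, not as the genes with the largest differences, and capitals mark GAGGAA or, on the other strand, TTCCTC, a core that PU.1, the lineage factor of macrophages, can bind.
Mrc1 (chr2:14229164-14229413, plus strand): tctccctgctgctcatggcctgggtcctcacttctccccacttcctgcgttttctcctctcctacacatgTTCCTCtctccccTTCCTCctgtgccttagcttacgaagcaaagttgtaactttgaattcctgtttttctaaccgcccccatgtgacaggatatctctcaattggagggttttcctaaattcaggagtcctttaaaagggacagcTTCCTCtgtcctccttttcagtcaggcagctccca
Cd163 (chr6:124304401-124304650, plus strand): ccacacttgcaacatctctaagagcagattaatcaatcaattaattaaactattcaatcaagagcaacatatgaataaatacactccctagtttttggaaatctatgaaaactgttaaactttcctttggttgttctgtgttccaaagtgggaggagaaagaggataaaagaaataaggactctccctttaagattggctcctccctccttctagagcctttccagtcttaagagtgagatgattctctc
Mgl2 (chr11:70130107-70130356, plus strand): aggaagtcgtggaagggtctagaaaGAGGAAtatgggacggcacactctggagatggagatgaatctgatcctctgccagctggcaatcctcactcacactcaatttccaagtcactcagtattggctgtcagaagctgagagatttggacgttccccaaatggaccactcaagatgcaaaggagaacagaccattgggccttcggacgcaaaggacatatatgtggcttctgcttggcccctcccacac

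The core was found 3 times in the Mrc1 window, 1 time in the Mgl2 window, 225 bases before the start, and not in the Cd163 window. Of the others it was found 1 time each in the windows of Cbr2 (79 bases before the start) and Stab1 (30 bases before), and in neither of the windows of Folr2. It occurs in 23.3% of all 32851 promoter windows of the same length, so its presence is a description of these letters and no more. The MAF half-site TGCTGAC (in 3.81% of windows) and the STAT core, TTC and GAA with any 4 bases between them (in 5.85%), searched on both strands, were found in none of the 6 matched genes.

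Cells kept per hashtag sample numbered 64 to 1554, and their summed unique molecular identifiers (UMIs, the counted transcripts) 247765 to 15288422. The sham samples were the smallest, with 64 cells (female) and 106 cells (male). The sorted cells carried the transcripts of the sort, since Ptprc (CD45) was between 567 and 1024 CPM (TMM-scaled counts, brought to the same library total in every sample) and Itgam (CD11b) between 121 and 640.0 CPM over all 13 samples. The macrophage genes Csf1r (270 to 814 CPM) and Adgre1 (94.6 to 586 CPM) were found in every sample too. Each injury at each time was in a library of its own, with 1 sham sample in each of the libraries at 1 week. The female sham sample was in the PSNL library and the male sham sample in the crush library. The times were separate batches in the labels, were counted with different versions of Cell Ranger according to the matrix headers, and only at 1 week were Ly6G-positive cells kept out of the sort, so that time cannot be told apart from these. The male crush sample at 15 weeks (M1, 1554 cells) was the lowest of its group in all 8 genes. It gave 1514 of the 2316 cells of crush at 15 weeks that were thinned to 2000 UMIs for the counts of single cells, so shares over the pooled cells of that group are mostly those of M1.

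At 1 week after PSNL, 7 of the 8 genes were lower than in sham and 1, Folr2, was not called, whereas 2% of all genes tested were called lower (called meaning an adjusted p below 0.05 in edgeR's quasi-likelihood test of the counts summed per hashtag sample). The genes divided by size. Lyve1, Cd163 and Mgl2 were close to or at 0, Cbr2 was lower by about 3 on the log2 scale, and Mrc1, Clec10a and Stab1 were reduced but still present in both samples.

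Lyve1 had 0 UMIs in both PSNL samples, against 32 UMIs in the female and 46 UMIs in the male sham sample, or 140.1 and 80.6 CPM. The samples did not overlap, and against the limit that 3 counts over the PSNL group give (0.480 CPM), Lyve1 was at least 229.8-fold lower (edgeR, adjusted p = 0.0021). Cd163 was at 5.21 and 1.69 CPM in the female and male PSNL samples, against 420.4 and 307 CPM in sham. This receptor was lower in PSNL by far more than the spread of either group (log2 fold change -6.88 ± 0.78 SE, adjusted p = 0.0011). Mgl2 was at 5.68 and 14.3 CPM in PSNL and at 946 and 599 CPM in sham (-6.17 ± 0.78, adjusted p = 0.0018). These 3 genes were called lower in all 25 alternatives run, with adjusted p-values of at most 0.0208 for Cd163, 0.027 for Lyve1 and 0.0208 for Mgl2.

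Cbr2 reached 37.9 and 16.0 CPM after PSNL, against 350.4 and 140.2 CPM in the sham samples, with no overlap (-3.17 ± 0.58, edgeR adjusted p = 0.0097). Mrc1 was at 279 and 189.6 CPM in PSNL, against 1358 and 787 CPM in sham, so that the mannose receptor kept a share of its sham level in both samples (-2.19 ± 0.39, adjusted p = 0.0081). Stab1 was at 185 and 98.2 CPM in PSNL, against 600.0 and 282 CPM in sham (-1.61 ± 0.36, adjusted p = 0.0233). Clec10a was at 54.0 and 81.0 CPM in PSNL and at 197 and 317 CPM in sham (-1.95 ± 0.35, adjusted p = 0.0082). Folr2 was at 47.8 and 60.5 CPM in PSNL, against 162 and 92.9 CPM in sham, lower in every PSNL sample but not past the threshold (-1.15 ± 0.58, adjusted p = 0.274). In all 8 genes both PSNL samples were below both sham samples, as they were in 19.1% of all genes tested.

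With 2 samples in each group, these calls rested on single samples in part. Without the male PSNL sample or without the female sham sample, 4 of the 8 genes were called. The adjusted p-values without the male PSNL sample were 0.0858 for Mrc1, 0.168 for Stab1 and 0.0898 for Cbr2, and without the female sham sample 0.0664, 0.19 and 0.0836 in the same order. Clec10a was lost without the female PSNL sample (0.0628) and without the male sham sample (0.109). With the library as a term in the model, Cd163 (-7.21), Mgl2 (-6.60), Lyve1, Cbr2 (-3.87) and Mrc1 (-2.66) still passed, and Stab1 (adjusted p = 0.0535) and Clec10a (0.081) did not. That term rests on 1 female and 1 male sham sample, so that library cannot be told apart from sex in it. PSNL is then set against the female sham sample alone, which was in its library. Stab1 was also lost with stricter cell filters (0.0766), and Folr2 was called with only the groups compared in the fit (0.0487).

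Markers of other myeloid cells moved with these genes. Of the 9 markers of Spp1 macrophages, 7 were called higher in PSNL than in sham and none lower, with a median log2 fold change of 2.46 and sums of 16521 and 21279 CPM in the PSNL samples, against 1914 and 2521 CPM in sham, where 1 of the 9 was at 0 in each sample. The 8 monocyte markers, 1 of them called higher, had a median of 2.69 and summed to 1951 and 1972 CPM in PSNL, none of them at 0, against 477 and 771 CPM in sham, with 1 and 0 at 0. The part of these cells in the lower genes was not tested. Neutrophil transcripts were also more abundant after PSNL, although Ly6G-positive cells were excluded from the sort at 1 week. The 10 neutrophil markers summed to 16691 and 5940 CPM in the PSNL samples, against 539 and 3837 CPM in sham, and 0 to 2 of the 10 were at 0 in these samples, while none of the 8 tested was called in the edgeR fit (2 higher at an unadjusted p under 0.05). Leaving out the neutrophil-like cells left the count at 7 of the 8 genes. The endothelial list summed to 237 and 401 CPM in the PSNL samples, with 4 and 1 of its 9 genes at 0, and to 17.5 and 15.8 CPM in sham, with 7 and 6 genes at 0. Of its 5 tested genes 1 was called, higher in PSNL, and its part was not tested.

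**Figure D1:**
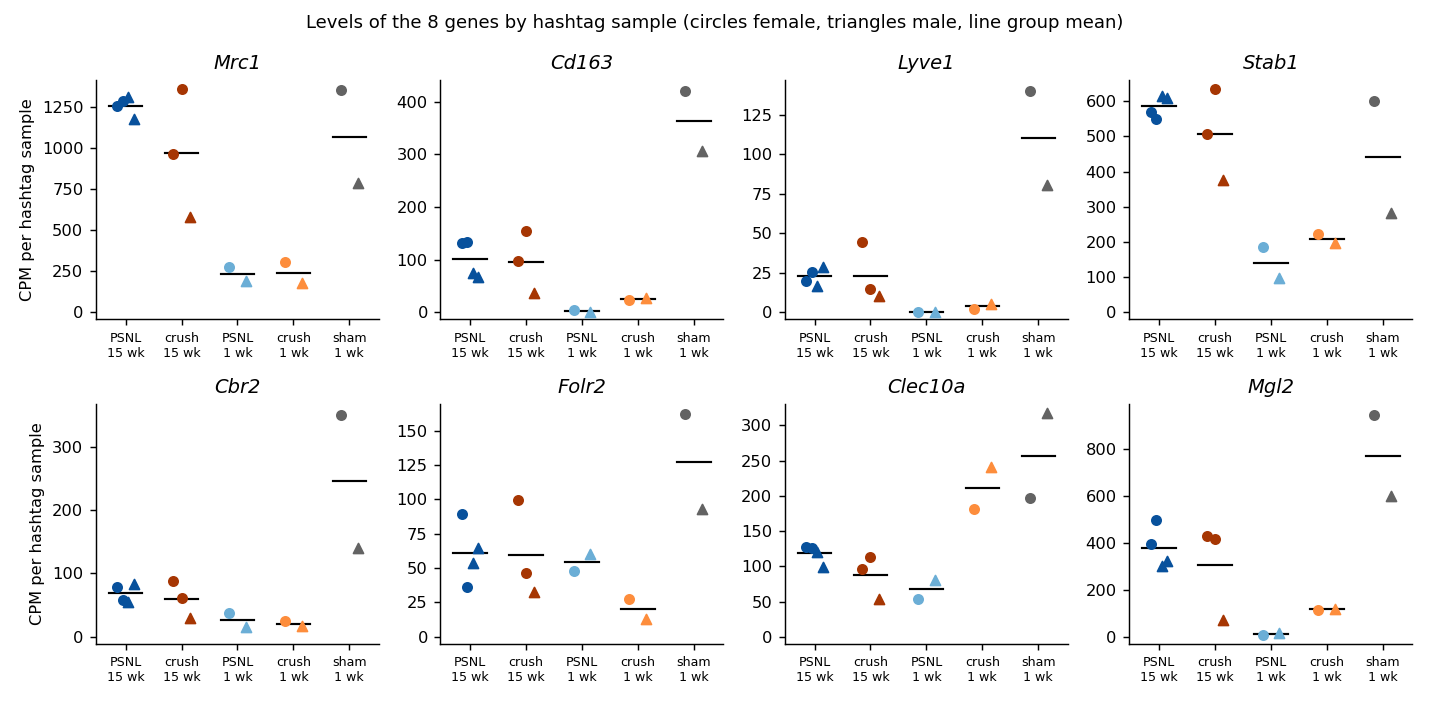
CPM (y axes, one scale per gene) of the 8 genes in each of the 13 hashtag samples, by group, with circles for female and triangles for male samples and a line at the group mean. Lyve1, Cd163 and Mgl2 lie at or near 0 in both PSNL samples at 1 week, and Clec10a is the only gene whose crush samples at 1 week (181 and 240.4 CPM) overlap with sham.

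At 1 week after crush, fewer of the genes passed the threshold. Cd163, Lyve1 and Cbr2 were called lower than in sham, 3 of the 8 genes, against 0.0958% of all genes tested (11 genes). Cd163 was at 23.2 and 27.6 CPM in the female and male crush samples, against 420.4 and 307 CPM in sham (-3.81 ± 0.62, edgeR adjusted p = 0.0475). Lyve1 was found at 2.46 and 5.51 CPM (5 and 18 UMIs) in crush, against 140.1 and 80.6 CPM in sham (-4.62 ± 0.77, adjusted p = 0.0475). Cbr2 was at 24.2 and 17.5 CPM in crush and 350.4 and 140.2 CPM in sham (-3.50 ± 0.60, adjusted p = 0.0475). For each of the 3 genes both crush samples lay far below both sham samples.

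The other genes were also lower in both crush samples than in either sham sample, except Clec10a, which makes 7 of 8, where this held for 14.3% of all genes tested. Mrc1 was at 307 and 177 CPM in crush, against 1358 and 787 CPM in sham (-2.14 ± 0.39, edgeR adjusted p = 0.0538). Mgl2 was at 114 and 120.1 CPM in crush, against 946 and 599 CPM in sham (-2.71 ± 0.65, adjusted p = 0.129). Folr2, at 27.6 and 12.9 CPM in crush and 162 and 92.9 CPM in sham (-2.63 ± 0.62, adjusted p = 0.124), and Stab1, at 222 and 197 CPM in crush and 600.0 and 282 CPM in sham (-1.04 ± 0.35, adjusted p = 0.278), did not pass either. Clec10a was at 181 and 240.4 CPM in crush, against 197 and 317 CPM in sham, with overlapping samples (-0.32 ± 0.33, adjusted p = 0.789).

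The crush calls lay close to the threshold and moved with single samples and settings. The count was 0 of 8 with the library as a term, with RLE scaling, without the 6% of cells with the highest doublet scores, and when the female sham sample (adjusted p = 0.182 for Cd163, 0.201 for Lyve1, 0.216 for Cbr2) or the male crush sample (0.348, 0.348 and 0.358) was left out. It was 1 of 8 without the female crush sample or without the male sham sample. It was also 0 when any 1 of the 6 PSNL samples of either time was left out, which enter this comparison only through the shared scaling and estimate of the spread. It was 6 of 8 in DESeq2, with no filter on genes and without the male crush sample of 15 weeks, where Mrc1 (adjusted p = 0.00904), Folr2 (0.0497) and Mgl2 (0.0038) were called as well. Over all 25 alternatives the log2 fold change stayed between -4.02 and -3.55 for Cd163, between -5.38 and -4.22 for Lyve1 and between -4.07 and -2.75 for Cbr2.

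Set against each other at 1 week, the injuries differed in Mgl2, Cd163 and Clec10a, which were lower after PSNL than after crush, 3 of the 8 genes, where 5.8% of all genes tested were called lower. Mgl2 was at 5.68 and 14.3 CPM in PSNL and at 114 and 120.1 CPM in crush (-3.46 ± 0.72, edgeR adjusted p = 0.010). Cd163 was at 5.21 and 1.69 CPM in PSNL and at 23.2 and 27.6 CPM in crush (-3.07 ± 0.79, adjusted p = 0.0257). Clec10a was at 54.0 and 81.0 CPM in PSNL and at 181 and 240.4 CPM in crush (-1.63 ± 0.33, adjusted p = 0.0087). In these 3 genes, and in Lyve1 and Stab1, both PSNL samples were below both crush samples, which held for 29.3% of all genes tested. The 8 markers of dendritic cells, which also carry Clec10a and Mgl2, summed to 309 and 314 CPM in PSNL and to 624 and 850 CPM in crush, none of them at 0, and 4 of the 8 were called lower in PSNL. Their part in the lower lectins was not tested over the samples. Lyve1 was at least 8.30-fold lower in PSNL against the limit of 3 counts, with an adjusted p of 0.0646 in the fit. Folr2 ran the other way, at 47.8 and 60.5 CPM in PSNL and 27.6 and 12.9 CPM in crush (1.47 ± 0.56, adjusted p = 0.109). Mrc1, Stab1 and Cbr2 had log2 fold changes of -0.05 ± 0.37, -0.57 ± 0.34 and 0.34 ± 0.58, and none passed. Since each injury had its own library, this comparison is also one between libraries. With the library as a term, held by the sham samples alone, none of the 8 was called, at -4.22 (adjusted p = 0.0732) for Mgl2, -3.61 (0.0975) for Cd163 and -1.05 (0.353) for Clec10a. None was called without the female PSNL sample either (0.071 for Mgl2, 0.0527 for Cd163, 0.0694 for Clec10a), and 1 was called without the male PSNL sample (Mgl2 at 0.0524 and Cd163 at 0.238 were lost) or without the male crush sample (Cd163 at 0.128 and Clec10a at 0.0706 were lost). Without the female crush sample Cd163 was lost (0.0562), and without the F1 crush sample of 15 weeks Lyve1 (0.0084) and Folr2 (0.0476, higher in PSNL) were called too.

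**Figure D2:**
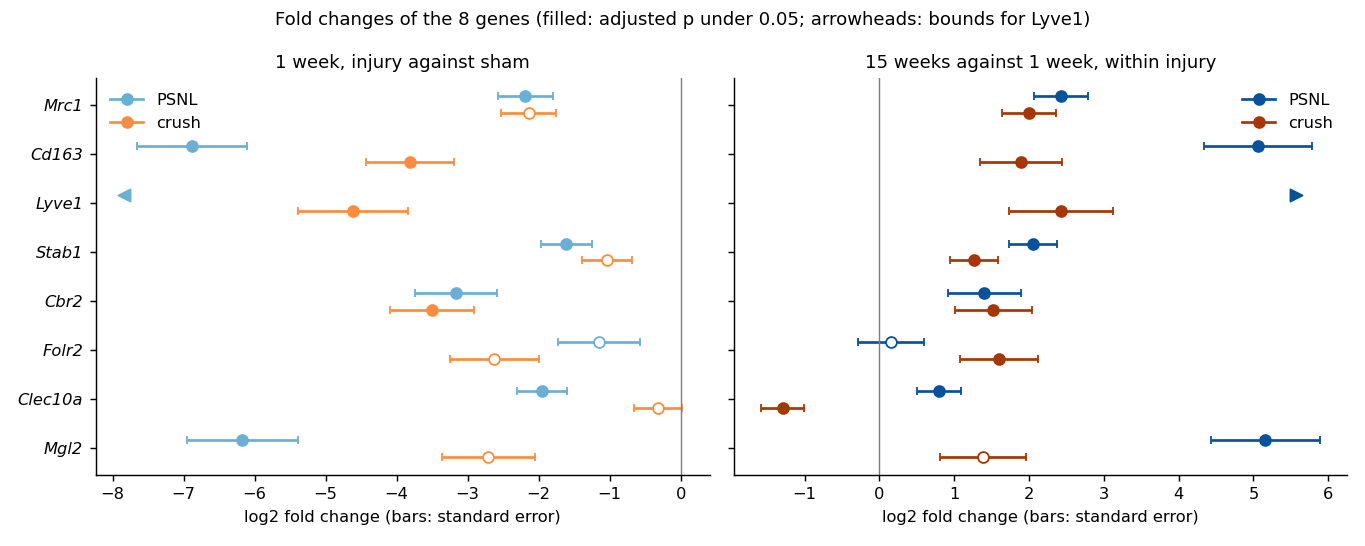
Log2 fold changes (x axes) of the 8 genes with their standard errors, for PSNL and crush against sham at 1 week (left) and for 15 weeks against 1 week within each injury (right). Filled points passed the adjusted threshold, and arrowheads give the bounds for Lyve1, which had no UMIs in PSNL at 1 week; Clec10a after crush is the only gene that was lower at 15 weeks, at -1.29.

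At 15 weeks, most of the genes were higher than at 1 week after both injuries. After PSNL, 7 of the 8 genes were called higher at 15 weeks, where 29.2% of all genes tested were called higher. Mrc1 reached 1257, 1290.3, 1311 and 1181 CPM in F1, F2, M1 and M2 of PSNL at 15 weeks, against 279 and 189.6 CPM at 1 week (2.43 ± 0.36, edgeR adjusted p = 0.00012). Cd163 was at 132, 133, 75.1 and 66.9 CPM at 15 weeks, against 5.21 and 1.69 CPM at 1 week (5.06 ± 0.72, adjusted p = 8.3e-05). Mgl2 was at 396, 499, 301 and 324 CPM at 15 weeks, against 5.68 and 14.3 CPM at 1 week (5.16 ± 0.72, adjusted p = 7.5e-05). The samples of the times were far apart in each of these 3 genes. Lyve1, at 20.1, 25.8, 16.7 and 28.6 CPM at 15 weeks, was at least 47.5-fold higher than at 1 week, where it had no UMIs. Marker lists of other cells moved between the times as well. At 15 weeks 8 of the 8 tested neutrophil markers, 7 of 8 monocyte, 5 of 6 migratory dendritic cell and 5 of 9 Spp1 macrophage markers were called lower, and 7 of 8 markers of endoneurial macrophages higher. The neutrophil markers summed to 114 to 166 CPM at 15 weeks (3 or 4 of the 10 at 0) and 16691 and 5940 CPM at 1 week, and the monocyte markers to 278 to 445 CPM at 15 weeks and 1951 and 1972 CPM at 1 week. Their part in the differences between the times was not tested.

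Stab1 was at 570.4, 549, 615 and 608 CPM in PSNL at 15 weeks and at 185 and 98.2 CPM at 1 week (2.05 ± 0.32, edgeR adjusted p = 0.00019). Cbr2 was at 78.9, 58.0, 54.6 and 83.7 CPM at 15 weeks and at 37.9 and 16.0 CPM at 1 week (1.40 ± 0.49, adjusted p = 0.0264). Clec10a was at 128, 126, 121 and 99.2 CPM at 15 weeks and at 54.0 and 81.0 CPM at 1 week (0.80 ± 0.29, adjusted p = 0.0322). In all 7 genes every sample at 15 weeks was above both samples at 1 week, as in 36.5% of all genes tested. Folr2 was at 89.4, 36.0, 53.9 and 65.0 CPM at 15 weeks and at 47.8 and 60.5 CPM at 1 week, with overlapping samples (0.16 ± 0.45, adjusted p = 0.786). Of these calls, that of Cbr2 was lost without the male PSNL sample of 1 week (adjusted p = 0.266) or the M2 sample of 15 weeks (0.0514). That of Clec10a was lost without the female PSNL sample of 1 week (0.234) and without F1 (0.0591), F2 (0.0578) or M1 (0.0551) of 15 weeks, and with stricter cell filters (0.144).

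After crush, 6 of the 8 genes were called higher at 15 weeks and 1 was called lower, where 24.1% of all genes tested were called higher and 18.5% lower. Mrc1 was at 967, 1359.8 and 584 CPM in the crush samples at 15 weeks (F1, F2 and M1), against 307 and 177 CPM at 1 week (2.01 ± 0.36, edgeR adjusted p = 0.00089). Stab1 was at 506, 634 and 377 CPM at 15 weeks, against 222 and 197 CPM at 1 week (1.27 ± 0.32, adjusted p = 0.0073). Cd163 was at 98.4, 155 and 36.4 CPM at 15 weeks, against 23.2 and 27.6 CPM at 1 week (1.89 ± 0.55, adjusted p = 0.0150). In each of them M1 lay nearest to the samples of 1 week without reaching them, and no overlap upwards was found in 6 of the 8 genes, against 33.3% of all genes tested. Lyve1 (44.8, 14.7 and 10.3 CPM at 15 weeks), Cbr2 (88.3, 61.7 and 29.7 CPM) and Folr2 (100.0, 46.7 and 33.0 CPM) had log2 fold changes of 2.43 ± 0.69, 1.53 ± 0.52 and 1.60 ± 0.52. Clec10a was the gene that was lower, at 95.8, 113 and 53.7 CPM at 15 weeks, against 181 and 240.4 CPM at 1 week (-1.29 ± 0.29, adjusted p = 0.0034). The dendritic cell markers were lower as well, 7 of 8 past the threshold, with sums of 81.0 to 293 CPM at 15 weeks and 624 and 850 CPM at 1 week and 0 or 1 of them at 0. Of the migratory dendritic cell markers 6 of 6 were lower too, and of the monocyte markers 5 of 8. Their part was not tested. Mgl2 was at 430 and 418 CPM in F1 and F2 and at 73.2 CPM in M1, against 114 and 120.1 CPM at 1 week, so that M1 alone lay below the samples of 1 week (1.38 ± 0.58, adjusted p = 0.0712). Without M1, all 8 genes passed, Mgl2 with 1.88 (adjusted p = 0.0007). Without the male crush sample of 1 week, 2 of the 8 passed (Mrc1 and Clec10a), and Cd163 (0.075), Lyve1 (0.0572), Stab1 (0.0632), Cbr2 (0.195) and Folr2 (0.231) did not. Without the female one, Cd163 (0.0849), Lyve1 (0.0953) and Cbr2 (0.0764) did not. Without F1 of 15 weeks Cbr2 (0.0959) and Folr2 (0.09) did not pass, and without F2 Cbr2 (0.0574) did not.

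For the paired lectins the change between the times differed between PSNL and crush in the fit. Each injury at each time was in 1 library, so this cannot be told apart from a difference between libraries. The difference between PSNL and crush in the log2 fold change of 15 weeks against 1 week was 2.09 ± 0.41 for Clec10a (edgeR adjusted p = 0.0117) and 3.78 ± 0.85 for Mgl2 (adjusted p = 0.0202). These were 2 of the 8 genes, where 3.41% of all genes tested were called in this direction. Cd163 came next (3.17 ± 0.90, adjusted p = 0.0502), and Mrc1, Lyve1, Stab1, Cbr2 and Folr2 did not pass. Both calls were lost without the female PSNL sample of 1 week (adjusted p = 0.053 for Clec10a and 0.0812 for Mgl2) and without the male crush sample of 1 week (0.064 and 0.0714), and Mgl2 was lost without the male PSNL sample of 1 week (0.0699). Cd163 was called without F2 (0.0174) or M1 (0.0301) of the crush samples of 15 weeks, and Lyve1 without F1 (0.0088).

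PSNL and crush did not differ past the threshold at 15 weeks in any of the 8 genes, nor did any of all genes tested in the edgeR fit (0% called, 553 genes with an unadjusted p under 0.05), while DESeq2 called 8 genes, none of them among the 8 described here, none of which had an unadjusted p under 0.05 in edgeR. The largest differences were 0.45 ± 0.25 for Clec10a and 0.38 ± 0.28 for Mrc1 on the log2 scale, and the samples of the groups overlapped in all 8 genes (they did not in 5.65% of all genes tested). Without M1, the differences of Cd163, Cbr2, Folr2 and Mgl2 changed sign, to -0.30, -0.13, -0.28 and -0.14.

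Against sham at 1 week, the genes fell into 3 sets at 15 weeks. Mrc1 (1260 ± 57.4 CPM in PSNL, n = 4, and 970.4 ± 388 CPM in crush, n = 3, against 1072 ± 404 CPM in sham, n = 2, SD) and Stab1 (585 ± 31.3, 506 ± 128 and 441 ± 225 CPM) overlapped with sham and were not called. Cd163, Lyve1, Cbr2 and Clec10a were lower than in sham after both injuries, 4 of the 8 genes each, where 11.9% of all genes tested were lower in PSNL and 9.19% in crush. Of the marker lists, 5 of 6 migratory dendritic cell markers were called lower in each, 5 and 4 of 8 neutrophil markers and 3 and 4 of 8 monocyte markers were lower in PSNL and in crush, and 5 of 8 endoneurial macrophage markers were higher in each. The migratory dendritic cell markers summed to 1.86 to 51.4 CPM in PSNL (0 to 5 of the 6 at 0) and 4.19 to 40.02 CPM in crush (1 to 3 at 0), against 254 and 682 CPM in sham, and the part of these lists was not tested. Cd163 averaged 102 ± 35.6 CPM in PSNL and 96.5 ± 59.2 CPM in crush, against 364 ± 80.5 CPM in sham (-1.82 ± 0.47 and -1.92 ± 0.50). Lyve1 averaged 22.8 ± 5.4 CPM in PSNL and 23.2 ± 18.8 CPM in crush, against 110.4 ± 42.1 CPM in sham (-2.21 ± 0.56 and -2.19 ± 0.58). Cbr2 averaged 68.8 ± 14.6 and 59.9 ± 29.3 CPM, against 245 ± 149 CPM in sham (-1.76 ± 0.46 and -1.98 ± 0.49). Clec10a averaged 118 ± 13.1 and 87.4 ± 30.4 CPM, against 257 ± 84.9 CPM in sham (-1.15 ± 0.29 and -1.61 ± 0.31).

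The edgeR adjusted p-values of these 8 differences lay between 0.0025 and 0.018, and every sample at 15 weeks was below both sham samples, as in 21.5% of all genes tested for PSNL and 20.6% for crush. Mgl2 (380 ± 89.0 and 307 ± 202 CPM, against 773 ± 245 CPM in sham) and Folr2 (61.1 ± 22.3 and 59.9 ± 35.4 CPM, against 127 ± 48.9 CPM) were lower on average and did not pass. All samples of both injuries in Mgl2, and all PSNL samples in Folr2, were also below both sham samples. In Folr2 the crush samples overlapped with sham. Because the sham samples are the same in both comparisons and come from the other batch, the comparisons are not independent. Without the female sham sample only Clec10a was called lower after each injury, and Stab1 was called higher in PSNL (1.07, adjusted p = 0.045). The lost calls had adjusted p-values of 0.0802 (Cd163), 0.094 (Lyve1) and 0.213 (Cbr2) in PSNL and of 0.0829, 0.115 and 0.154 in crush. Without the male sham sample only Cbr2 was called after each injury, with 0.078 (Cd163), 0.0728 (Lyve1) and 0.365 (Clec10a) for PSNL and 0.0839, 0.0887 and 0.144 for crush. Mgl2 was called lower in PSNL without the crush sample M1 (-1.013, adjusted p = 0.0132), and Folr2 lower in crush without F1 (-1.63, adjusted p = 0.0221).

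**Figure D3:**
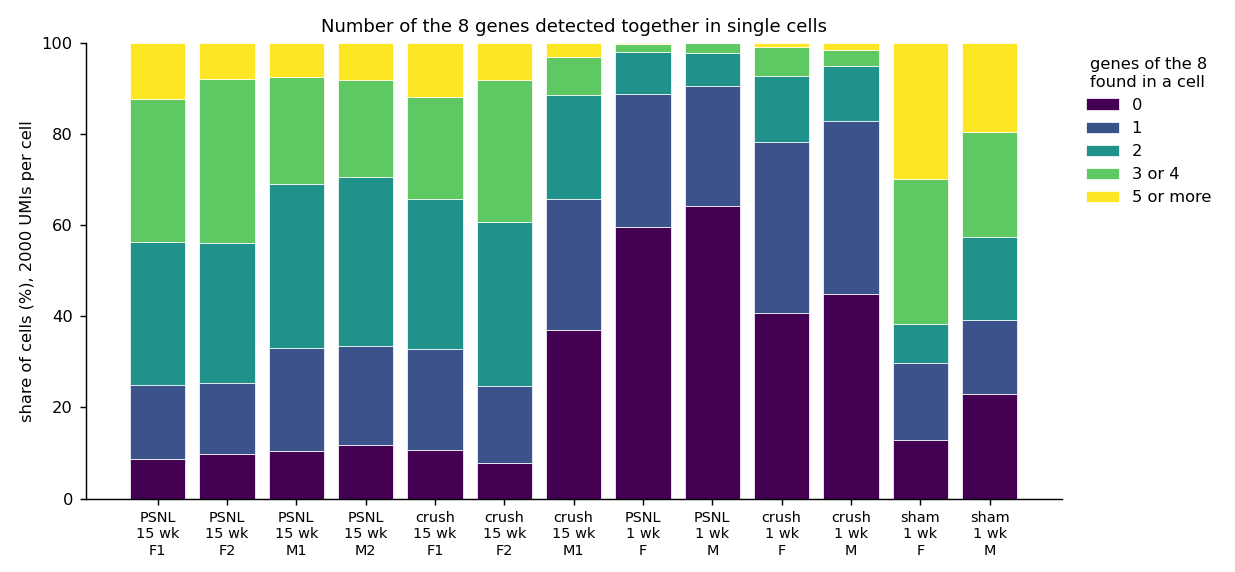
Share of cells (y axis, percent) in each hashtag sample in which 0, 1, 2, 3 or 4, or 5 or more of the 8 genes were found, after thinning each cell to 2000 UMIs. Cells with 3 or more of the genes make up 29.4 to 43.9% in PSNL and 11.4 to 39.3% in crush at 15 weeks, 2.03 and 2.35% in PSNL and 7.37 and 5.03% in crush at 1 week, and 61.7 and 42.5% in sham.

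The genes were also followed in single cells, each thinned to 2000 UMIs. Neither summed counts nor the share of cells with a UMI can tell fewer cells with a gene from less of its RNA in each cell. Mrc1 was found in 77.1 ± 2.38% of cells in PSNL and 65.3 ± 17.8% in crush at 15 weeks, in 19.5 ± 3.60% in PSNL and 22.4 ± 6.97% in crush at 1 week, and in 65.0 ± 7.38% in sham (SD over samples, n = 4, 3, 2, 2 and 2). Cd163 was found in 13.1 ± 5.18% of cells in PSNL and 12.6 ± 8.03% in crush at 15 weeks, in 0.265 ± 0.0159% in PSNL and 3.69 ± 1.23% in crush at 1 week, and in 33.0 ± 4.44% in sham. Without thinning, Mrc1 was found in 90.5, 84.0, 28.3, 31.9 and 72.4% of cells in the same order of groups. The thinned shares left out 55, 65, 287, 155 and 36 cells with fewer UMIs.

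Shares near the background of the droplets were read as such. With cells thinned to 1000 UMIs, Mrc1 was found in 13.5% of the PSNL cells at 1 week that were not neutrophil-like, against 5.22% of the neutrophil-like cells, and Stab1 in 8.84%, against 2.61%. Cd163 (0.542% of other and 0.373% of neutrophil-like PSNL cells) and Mgl2 (0.903 and 0.373%) were in 1 of 268 neutrophil-like cells each. The share of Cd163 after PSNL was read as background. The Mgl2 UMIs after PSNL were uneven over the clusters described below, so Mgl2 was not read as background alone. Without thinning or TMM scaling, Mgl2 was at 47.8 CPM (20 UMIs) in the migratory dendritic cell-like cluster 15. It was at 94.5 CPM (12 UMIs) in the cell cycle-like cluster 16. The neutrophil-like cells were at 4.42 CPM (3 UMIs) and the Spp1 macrophage-like cluster 2 at 1.17 CPM (5 UMIs). The part of background in these counts was not tested. The median depths before thinning were 5278 UMIs in the other and 1926 UMIs in the neutrophil-like PSNL cells. In sham, Mgl2 was found in 46.1% and Cd163 in 31.6% of the other cells (median 3519 UMIs), against 2 of 14 neutrophil-like cells each (median 1973 UMIs). Lyve1 was found in 0 of 1118 thinned cells in PSNL at 1 week, where a count of 0 allows a share of cells with a UMI of up to 0.268% at this depth, which covers counting error only and does not limit the share of cells that express the gene.

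Cells that held several of the genes at once were frequent in sham and at 15 weeks and rare at 1 week after injury. At least 3 of the 8 genes were found in 43.7, 43.9, 30.9 and 29.4% of cells in the PSNL samples at 15 weeks (F1, F2, M1 and M2), and in 34.4, 39.3 and 11.4% in the crush samples (F1, F2 and M1). At 1 week the shares were 2.03% (95% exact binomial interval 0.881 to 3.96%) and 2.35% (1.37 to 3.73%) in the PSNL samples and 7.37% (4.62 to 11.04%) and 5.03% (3.28 to 7.34%) in the crush samples, against 61.7% (46.4 to 75.5%) and 42.5% (32.0 to 53.6%) in sham. The intervals cover counting error only. Injured and sham samples at 1 week did not overlap, nor did the times within an injury, while PSNL and crush overlapped at 15 weeks.

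The mean share differed from sham by -49.9 percentage points in PSNL and by -45.9 in crush, and an exact permutation test (two-sided) over 2 against 2 samples cannot give a p below 0.333, the value found for both. PSNL and crush at 1 week did not overlap either, at 2.19 and 6.2% on average (-4.01 points, p = 0.333 in the same exact permutation test). Between the times the exact permutation p was 0.133 for PSNL (34.8 points higher at 15 weeks) and 0.2 for crush (22.2 points higher), again the smallest these designs allow. For PSNL against crush at 15 weeks it was 0.457 (8.59 points), where 0.0571 is the smallest possible. Adjusted over the 6 comparisons made, none was below 0.4.

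The genes found together differed between the groups. Among cells with any of the 8 genes, the most common set at 15 weeks was Mrc1 with Stab1 and no other, in 22.8% of such cells in PSNL and 26.5% in crush. Mrc1 with Stab1 and Mgl2 followed in PSNL (13.2%). The pooled crush cells came mostly from M1, in which Mgl2 was found in 10.4% of cells, against 37.6 and 43.9% in F1 and F2. At 1 week, single genes led after both injuries, Mrc1 alone in PSNL (29.6%) and Clec10a alone in crush (27.3%). In sham no set stood out, and the most common, Mrc1 alone, made up 8.33% of 108 cells, while 4 of these cells held Mrc1, Cd163, Lyve1, Stab1, Cbr2 and Mgl2 together.

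Among the cells with Mrc1, the partners changed with the group. Mgl2 was found in 56.2, 58.4, 38.0 and 38.1% of the Mrc1 cells in PSNL and in 40.7, 48.1 and 20% in crush at 15 weeks, in 3.45 and 1.63% in PSNL and 16.7 and 29.9% in crush at 1 week, and in 78.8 and 61.5% in sham. Cd163 was found in 22.8, 16.3, 10.4 and 10.8% of the Mrc1 cells in PSNL and 14.5, 24.2 and 9.05% in crush at 15 weeks, in 0 and 0.813% in PSNL and 7.69 and 11.5% in crush at 1 week, and in 45.5 and 44.2% in sham. In both genes the Mrc1 cells of sham were above those of every other group, and those of PSNL at 1 week below. Stab1 was the most frequent partner of Mrc1 in every injured sample of both times. It was found in 29.9 and 21.1% of Mrc1 cells in PSNL and on average 33.8% in crush at 1 week. At 15 weeks the means were 67.3% in PSNL and 66.6% in crush. In sham Stab1 was found in 75.8 and 40.4% of Mrc1 cells, and Mgl2 was the more frequent partner in both samples.

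**Figure D4:**
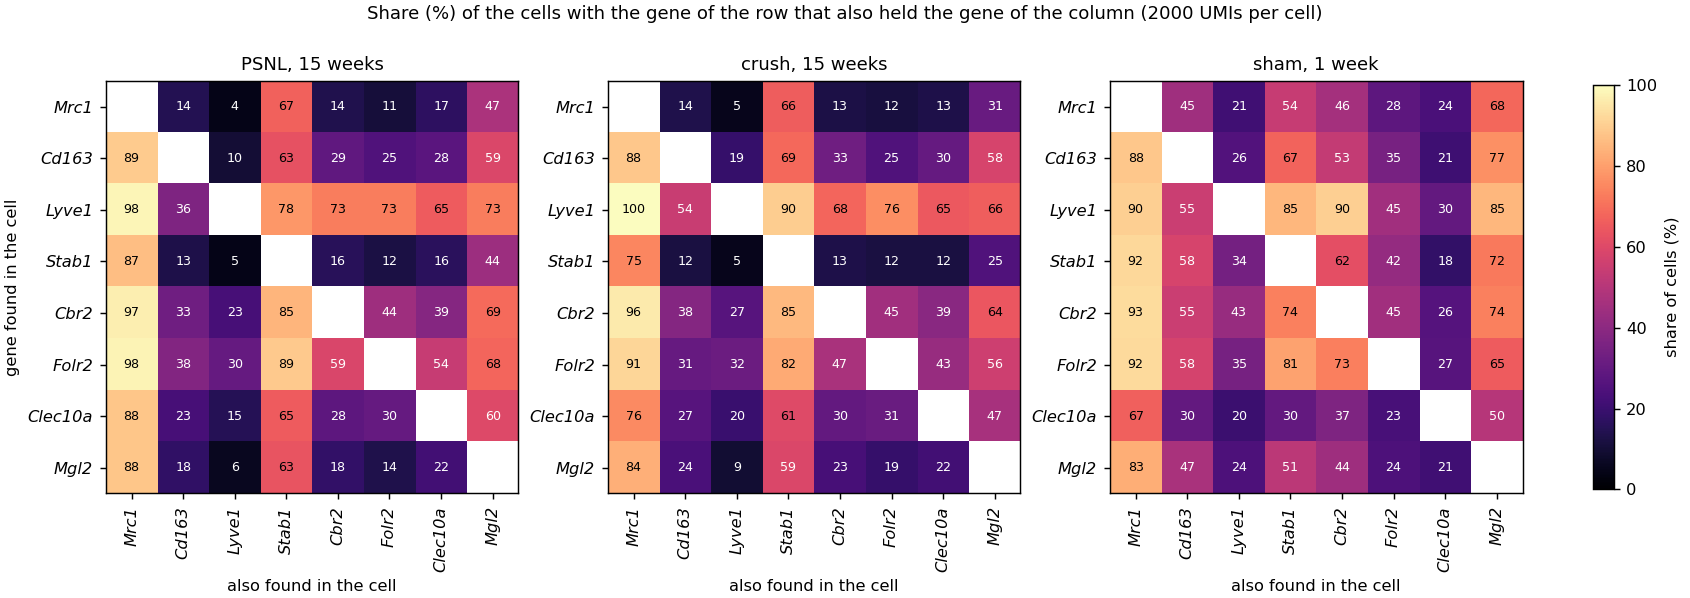
Each square gives the share (percent, colour and number) of the cells with the gene of its row in which the gene of its column was also found, in PSNL at 15 weeks, crush at 15 weeks and sham at 1 week, with cells of all samples of a group pooled and thinned to 2000 UMIs. Of the 55 Lyve1 cells in PSNL at 15 weeks, 98.2% held Mrc1 and 36.4% held Cd163, whereas 4.39% of the Mrc1 cells held Lyve1. Of all 1597 cells of that group, 1231 held Mrc1 and 199 held Cd163. Lyve1 thus met Mrc1 1.28 times and Cd163 2.99 times as often as at random.

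The pairs were unequal in how often they met relative to chance, taken as the product of the shares of both genes within each sample, summed over the samples of a group. At 15 weeks Lyve1 and Folr2 met 8.37 times as often in PSNL (5.21 to 11.7 over the 4 samples) and 6.93 times as often in crush (5.16, 8.20 and 16.96 in F1, F2 and M1). Lyve1 and Cbr2 met 6.07 times as often in PSNL (2.86 to 10.6) and 6.21 times in crush (4.27, 6.61 and 16.5), and Cbr2 and Folr2 5.12 times in PSNL (4.02 to 7.39) and 4.65 times in crush (3.59, 6.35 and 7.76). All of these pairs met more often than at random in every sample of 15 weeks, with the highest crush ratio in M1. Each of these genes was also rarest in M1 among the crush samples. Folr2 was found in 4.36% of the cells of M1, against 16.2% in F1 and 6.10% in F2. Over the groups at 15 weeks, Stab1 met Lyve1, Cbr2 and Folr2 1.31, 1.41 and 1.48 times as often in PSNL. In crush it met them 1.69, 1.62 and 1.57 times as often. In PSNL, 78.2% of the Lyve1, 84.7% of the Cbr2 and 88.7% of the Folr2 cells held Stab1. With the paired lectins Stab1 was nearer to 1, the value for genes that meet at random. The ratios were 0.98 to 1.16 with Clec10a and 0.94 to 1.11 with Mgl2 in the PSNL samples. In crush these ratios were 0.9955, 1.06 and 1.40 with Clec10a and 1.014, 0.91 and 1.46 with Mgl2, so that M1 stood above F1 and F2. In crush at 1 week Stab1 and Clec10a were found together in 14 cells where 38.9 would meet at random, a ratio of 0.36 (0.25 in the female and 0.41 in the male sample). In PSNL at 1 week no cell held Stab1 with Mgl2, among 144 and 12 cells with each gene, where 1.51 would meet at random. Within a sample the ratio cannot exceed 1 divided by the share of cells with the more common gene. Rare genes can therefore reach higher ratios. In PSNL at 15 weeks Stab1 was found in 953 of 1597 cells, against 55 for Lyve1 and 133 for Folr2. Ratios of pairs or samples with unlike shares thus do not rank how closely the genes go together. These ratios are descriptions, since cells of 1 sample share their source and depth.

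Clustering without the 8 genes and without the markers gave 19 clusters, most of which held cells mainly of 1 time. Clusters 11 (115 cells at 15 weeks and 112 at 1 week), 16 (36 and 41) and 18 (16 and 14) held both times alike, and cluster 8 held 50 cells at 15 weeks and 300 at 1 week. At 15 weeks a resident macrophage-like cluster (cluster 14, led by Cd209f, Ednrb and Ccl8, 156 cells, 3.87% of the cells of that time) held 72.9% of the Lyve1 UMIs, 48.6% of Folr2, 40.4% of Cbr2 and 36.6% of Clec10a. An unnamed cluster led by Rad51b and St3gal6 (cluster 0, 17.8% of cells) held 49.6% of the Cd163 UMIs, 36.6% of Mgl2 and 30.5% of Mrc1. The highest-scoring marker list of cluster 0 was also that of resident macrophages (score 1.04, against 2.91 in cluster 14). Of the 12 markers of that list, 9 were found in at least 20% of its cells, but no marker of the list led the cluster. Stab1 was spread more widely, with 26.5% in a cluster led by Gpx3 and Wwp1 and 22.0% in one led by Dock3 and Dkk2. A dendritic cell-like cluster (cluster 12, 5.06% of cells) held 24.5% of the Clec10a and 16.6% of the Mgl2 UMIs. In the crush sample M1, cluster 0 made up 6.56% of cells, against 19.9 and 30.6% in the other crush samples.

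At 1 week the same genes lay in other clusters. The resident macrophage-like cluster 14 and cluster 0 held 0 cells of that time, sham included. The clustering had no correction for batch, so a different division of the genes at 1 week cannot be told apart from batch. A dendritic cell-like cluster (cluster 5, 18.6% of cells) held 68.3% of the Clec10a UMIs and 28.6% of Mgl2. A Spp1 macrophage-like cluster (cluster 2) held 60.3% of Folr2 and 28.3% of Mrc1 but 0.479% of Mgl2. An unnamed cluster (cluster 8, 300 cells, 11.9%) held 88.1% of the Lyve1, 66.4% of the Cd163, 49.8% of the Cbr2 and 41.6% of the Stab1 UMIs. The 85 sham cells of cluster 8 gave 75 Lyve1, 207 Cd163, 126 Cbr2 and 243 Stab1 UMIs. Its 142 crush cells gave 14, 68, 52 and 494 in the same order, and its 73 PSNL cells 0, 8, 27 and 173. Cluster 8 was led by Gm42418, a transcript that overlaps a ribosomal RNA repeat, and Gm42418 took 12.05 and 9.71% of all UMIs in PSNL, 12.96 and 7.24% in crush and 18.4 and 9.80% in sham. With Gm42418 and mitochondrial genes left out of the totals, the counts of the 8 genes called at 1 week were within 1.5 times of those above.

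**Figure D5:**
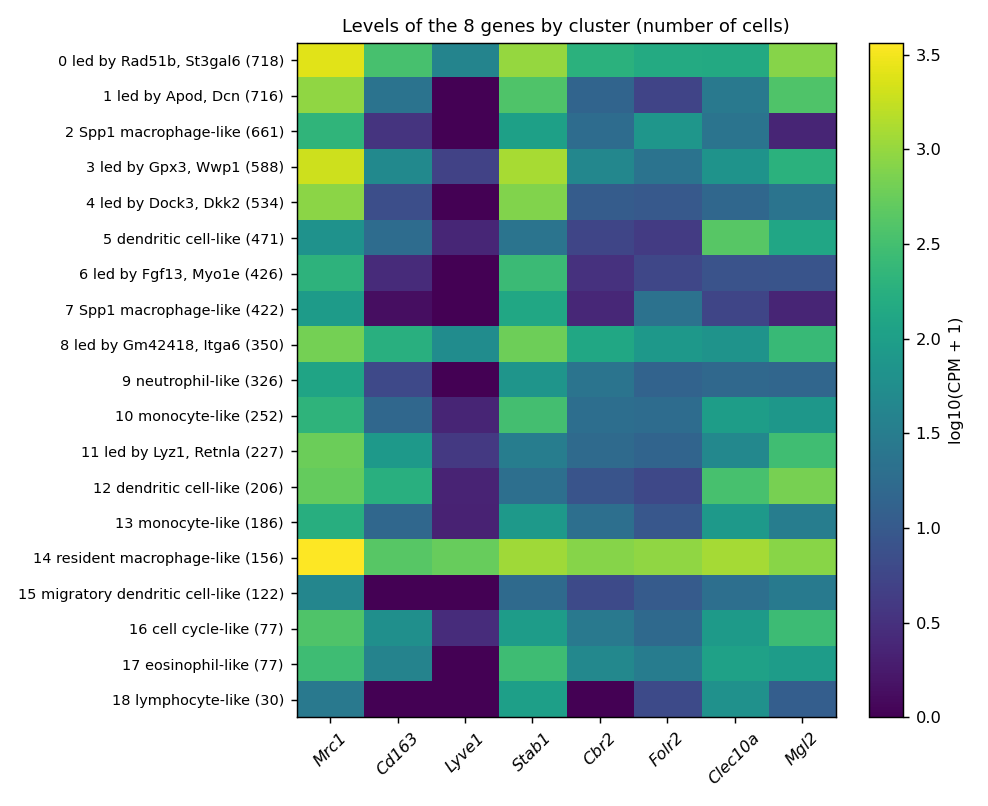
Level of the 8 genes (columns, with colour for log10 of CPM plus 1) in each of the 19 clusters (rows, with the number of cells). Counts were summed over all cells of a cluster, and these CPM are not TMM-scaled. The resident macrophage-like cluster 14 is high in all 8 genes, and the dendritic cell-like clusters 5 and 12 are high in Clec10a and low in Lyve1.

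Within cluster 8 the genes differed between the groups at 1 week as well. Mrc1 was at 463 and 377 CPM in the PSNL cells of this cluster and at 335 and 540.1 CPM in the crush cells, against 2158 and 1712 CPM in the sham cells. Cd163 was at 32.0 and 0 CPM in PSNL and at 48.3 and 176 CPM in crush, against 736 and 968 CPM in sham. Mgl2 was at 16.0 and 26.4 CPM in PSNL and at 32.8 and 79.0 CPM in crush, against 1308 and 1183 CPM in sham. The sham samples stood above all injured samples in each gene, in cells whose number per sample was 26 to 97. Stab1 was closer, at 375 and 522 CPM in PSNL and 616 and 602 CPM in crush, against 1005 and 993 CPM in sham.

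Cluster 8 made up 8.83 and 2.98% of cells in the PSNL samples and 29.2 and 7.44% in the crush samples, against 65.6 and 40.6% in sham. In the dendritic cell-like cluster 5, Clec10a was at 175 and 401 CPM in PSNL and 398 and 474 CPM in crush, against 600.0 and 1024 CPM in sham, where the cluster held only 4 and 15 cells. Mgl2 in that cluster was at 17.5 and 19.2 CPM in PSNL and at 179 and 137 CPM in crush, against 280 and 399 CPM in sham, so Mgl2 was lower after PSNL than after crush within these cells too. No test was made within clusters.

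Over the 13 samples, the genes followed each other to different degrees. The Pearson correlation of log2 CPM was 0.958 for Cd163 with Lyve1, 0.945 for Cd163 with Mgl2 and 0.946 for Mrc1 with Stab1, and the values of Clec10a were low with several of the others, at 0.0793 with Mrc1, 0.0611 with Stab1 and 0.0269 with Folr2. The samples share libraries and fall into groups, so these values describe the pattern of the groups. Among the genes whose level was most like the mean of the 8 were Rcn3 (r = 0.954), Ap2a2 (0.954), which encodes a subunit of the clathrin adaptor AP-2, Mxra7 (0.934) and Plppr4 (0.933), over 13 samples. Ap2a2 averaged 189 ± 12.3 CPM in PSNL and 155 ± 32.5 CPM in crush at 15 weeks, 109.7 ± 13.6 CPM in PSNL and 139.7 ± 10.7 CPM in crush at 1 week, and 221 ± 15.4 CPM in sham (SD).

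Other scavenger receptors did not follow the 8 genes at 1 week. Of 13 tested in PSNL against sham, none was called lower (none at an unadjusted p under 0.05 either) and 2 were called higher, with a median log2 fold change of 0.82, against -2.68 for the 8 genes and 0.10 for all genes tested. Msr1, the class A scavenger receptor of macrophages, averaged 290.2 ± 20.6 CPM in PSNL and 57.4 ± 11.8 CPM in sham (SD, n = 2 each; 2.40 ± 0.40 SE, edgeR adjusted p = 0.0065). Olr1, a receptor for oxidised lipoproteins, averaged 53.3 ± 12.5 CPM in PSNL and had no UMIs in sham, at least 14.2-fold higher. Of the 24 other lectin receptors tested, 3 were lower and 4 higher in PSNL than in sham (median 0.02). Clec4b1 averaged 20.5 ± 4.197 CPM in PSNL and 167 ± 44.0 CPM in sham (-3.04 ± 0.36, adjusted p = 0.0013). Clec4d (3.57 ± 0.50, adjusted p = 0.0032), Clec4e (3.53 ± 0.68, adjusted p = 0.0121), which encodes the Mincle receptor for mycobacterial glycolipids, and Clec5a (2.71 ± 0.38, adjusted p = 0.0032) were higher. Clec4d and Clec4e are also expressed by neutrophils, whose summed markers were higher after PSNL here, and their part was not tested. Of the 12 other markers of resident macrophages, 5 were lower and none higher in PSNL than in sham, with a median of -1.11.

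In crush against sham at 1 week, none of the 13 scavenger receptors and none of the 24 lectin receptors passed in the edgeR fit (1 and 5 lower and 1 and 3 higher at an unadjusted p under 0.05), with medians of -0.09 and -0.16 on the log2 scale, against -2.67 for the 8 genes and 0.09 for all genes tested. Of the 12 other resident markers, 3 were lower. In crush at 15 weeks against 1 week, 7 of the 13 scavenger receptors were higher and none lower, Colec12 (42.8 ± 18.0 CPM at 15 weeks and 2.24 ± 1.009 CPM at 1 week, 4.35 ± 0.51) and Msr1 (96.0 ± 19.5 and 41.2 ± 25.4 CPM, 1.25 ± 0.32) among them. In PSNL over the same interval 2 were higher and 2 lower. Msr1 went the other way from the 8 genes there, with 88.5 ± 13.4 CPM at 15 weeks and 290.2 ± 20.6 CPM at 1 week (-1.71 ± 0.26, adjusted p = 0.00016). Of the 24 lectin receptors, 10 were higher and 7 lower at 15 weeks in PSNL, and 9 higher and 5 lower in crush. Of the 12 other resident markers, 9 were higher and 2 lower in PSNL, and 9 higher and 0 lower in crush, with medians of 2.10 and 2.26.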

How the data were processed

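Cells from the left sciatic nerve were analysed from 4 libraries with 13 hashtag samples. The deposited values were UMI counts per gene and cell barcode, which the authors made with Cell Ranger (6.0.0 in the processing notes; 6.0.0 in the matrix headers at 1 week and 7.0.0 at 15 weeks) on GRCm38; the processing notes also name Seurat 5.1.0. Whether introns were counted is not given in the sources used here.

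Cells were given to a hashtag sample at the valley between the modes of each hashtag's counts, and cells above the threshold for more than 1 hashtag were removed as doublets (28.9 and 26.8% of barcodes at 1 week, in PSNL and crush, and 5.13 and 1.79% at 15 weeks). Scrublet called 9 barcodes in all and was not used as a filter. The filter on cells required 500 genes or more and a mitochondrial share below 10%. Counts were summed per hashtag sample, and edgeR 4.0.16 gave quasi-likelihood tests (R 4.3.3; TMM, filterByExpr, 5 groups, Benjamini-Hochberg adjustment over 11482 genes, threshold 0.05). CPM values are TMM-scaled counts. Limits for a count of 0 rest on 3 counts over the group. Cells were clustered with scanpy 1.11.5 and leidenalg 0.10.2 without 114 genes, which are the 8 genes and the markers together. A cluster was named by its highest-scoring marker list. The name required at least 3 markers of the list in 20% of cells or more and at least 1 among the leading genes. The rule on leading genes was set after seeing the data. Xist and Ddx3y matched the sex in the labels in all 13 samples. In simulated counts for PSNL against sham (11075 genes), 55% of 4-fold and 9% of 2-fold changes were recovered.

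The 8 genes and the gene lists were chosen with earlier results of these data known. Named besides them are up to 4 genes per list and comparison with the smallest adjusted p, and the 6 genes most like the mean of the 8, of which some are not reported here. Alternatives were Seurat 5.3.0 HTODemux, other filters on cells and genes, RLE scaling, DESeq2 1.42.0, a library term, other thinning and leaving out each sample. The difference of the time contrasts was added to the alternatives after seeing the data.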

Additional observations from a re-analysis of the deposited data

Results flagged for a closer look

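In PSNL at 15 weeks, 12.27% of the cells of sample F1 held at least 5 of the 8 genes, against 7.96, 7.52 and 8.29% in F2, M1 and M2, a gap that set F1 far from the other samples of its group. It was 1 of 12 sets of samples checked in this way, of which chance would pick out about 5%.

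The change between 15 weeks and 1 week differed between the injuries for 2 of the genes, with a library of its own for each injury at each time. The difference, PSNL minus crush, was 2.087 on the log2 scale for Clec10a and 3.779 for Mgl2 in the test of the difference itself.

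The crush library of 15 weeks held 110 UMIs of a hashtag to which the labels give no sample. No cells were assigned to it.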

How the results depend on the processing

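With 2 samples per group at 1 week, the counts of calls moved under many settings for crush against sham, where 3 of the 8 genes and 19 genes in all were called. The genes called in all were 48 with HTODemux, 12 with a hashtag count 3 times the second, 55 with looser cell filters, 5 without the highest doublet scores, 12 without neutrophil-like cells, 9 with RLE, 152 with no filter on genes, 1 with only the groups compared, 0 with the library term and 143 in DESeq2. Of the 8 genes, 1, 0, 1, 0, 6, 1, 0 and 6 were called with the hashtag ratio, without the highest doublet scores, without neutrophil-like cells, with RLE, with no filter on genes, with only the groups compared, with the library term and in DESeq2, taken in that sequence. For PSNL against sham, 598 genes became 986 with looser cell filters and 132 with the library term. For PSNL against crush at 1 week, 1435 genes became 10 and 3 of the 8 became 0 with the library term, and 5 of the 8 were called with no filter on genes. For crush at 15 weeks against sham, only the groups compared gave 1474 genes and 2 of the 8. For PSNL against crush at 15 weeks, 9 genes were called with no filter on genes and 8 in DESeq2. For crush at 15 weeks against 1 week, only the groups compared gave 3 of the 8. For the difference of the time contrasts, 4 of the 8 were called with no filter on genes and in DESeq2. The cause of these changes was not tested.

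The share of cells with at least 3 of the genes followed the depth kept. It was 21.5% in PSNL at 15 weeks, 1.026% in PSNL at 1 week and 2.799% in crush at 1 week at 1000 UMIs, 4.412% in PSNL and 8.256% in crush at 1 week at 3000 UMIs, and 62.45% in PSNL and 52.35% in crush at 15 weeks and 8.479% in PSNL and 13.56% in crush at 1 week without thinning. With stricter cell filters it was 1.94% in PSNL and 4.137% in crush at 1 week. The injuries at 1 week stayed below 15 weeks in each.

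Leaving out 1 sample at a time gave 153 to 830 genes and 4 to 7 of the 8 for PSNL against sham, 0 to 99 and 0 to 6 for crush against sham, 362 to 1809 and 0 to 5 for PSNL against crush at 1 week, 963 to 3329 and 1 to 5 for PSNL at 15 weeks against sham, 782 to 2814 and 1 to 5 for crush at 15 weeks against sham, 0 to 2 and 0 to 0 for PSNL against crush at 15 weeks, 4579 to 6853 and 6 to 7 for PSNL at 15 weeks against 1 week, 3002 to 5175 and 2 to 8 for crush at 15 weeks against 1 week, and 198 to 1167 and 0 to 3 for the difference of the time contrasts. The share of cells with at least 3 of the genes ranged from 34.67 to 39.48% in PSNL and 22.91 to 36.86% in crush at 15 weeks, 2.03 to 2.348% in PSNL and 5.03 to 7.368% in crush at 1 week, and 42.53 to 61.7% in sham.

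Other settings turned the sign only of log2 fold changes that passed in neither setting. With stricter cell filters these were Mrc1 in PSNL against crush at 1 week (0.16) and in crush at 15 weeks against sham (0.095), Lyve1 in PSNL against crush at 15 weeks (0.092) and Folr2 in PSNL at 15 weeks against 1 week (-0.11). With the library term Cbr2 in PSNL against crush at 1 week was -1.08. With looser cell filters Stab1 in crush at 15 weeks against sham was -0.0022, and Folr2 in PSNL against crush at 15 weeks was -0.034, and -0.096 with HTODemux. Lyve1 in PSNL against crush at 15 weeks was 0.0035 with RLE and 0.10 with the replicate block.

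Leaving out 1 sample at a time took some log2 fold changes across 0. Clec10a ranged from -0.57 to 0.12 in crush against sham. Between PSNL and crush at 1 week, Mrc1 ranged from -0.39 to 0.39 and Cbr2 from -0.37 to 0.88. For PSNL at 15 weeks against sham, Mrc1 ranged from -0.084 to 0.70 and Stab1 from -0.012 to 1.07, and for crush at 15 weeks Mrc1 from -0.46 to 0.32 and Stab1 from -0.22 to 0.86. For PSNL against crush at 15 weeks, the ranges were -0.30 to 0.61 for Cd163, -0.42 to 0.93 for Lyve1, -0.13 to 0.63 for Cbr2, -0.28 to 0.63 for Folr2 and -0.14 to 0.65 for Mgl2. Folr2 in PSNL at 15 weeks against 1 week ranged from -0.075 to 0.35, and the difference of the time contrasts from -0.015 to 0.77 for Mrc1 and from -0.67 to 0.58 for Cbr2. Stab1 at 1.07, in PSNL at 15 weeks against sham without the female sham sample, passed the threshold.

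The replicate block, with F1, F2 and M1 as pairs of PSNL and crush at 15 weeks, called 0 of the 8 genes, as without it. The deviations of same-numbered samples correlated at 0.0829, 0.166 and 0.113, so the numbers were not taken to pair the samples. Median log2 changes of all genes shifted by over 0.1 only with no filter on genes and without the male sham sample. The sham samples, with 64 and 106 cells, limit every comparison with sham.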
